A study of Mus musculus with 8 samples.

Results

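Hematopoietic stem cells (HSCs) carrying 2 copies of the mutant allele NrasG12D were compared with HSCs carrying 1 copy. The genes described are those with an array probe well above background on all 6 mutant arrays: 6367 of the 27600 gene names on the array. Of these, 6287 passed the filters of the test, and 6007 had a value on all 6 arrays. The comparison asks how gene expression in stem cells differs with the number of mutant alleles.

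Total RNA from bone marrow HSCs of B6 mice was hybridised to 1-colour Agilent arrays, each carrying a single sample. The mutant genotypes were NrasG12D/G12D (n = 3) and NrasG12D/+ (n = 3), and Nras+/+ (n = 2) served as the series' control. No treatment is listed for any group. The mutant alleles are described as endogenous, so they are expressed from the gene's own locus. The labels name no promoter, Cre driver, age or sorting gate for any group, and do not say that the replicates were different mice. The p-values below therefore reflect variation among samples that may be technical.

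Nras is a small GTPase that passes signals from cytokine receptors to the RAF, MEK and ERK kinases and to PI3K. The G12D substitution impairs hydrolysis of the bound GTP and holds the protein in its active form. Adult HSCs are mostly quiescent, and their return to the cycle, their survival and their retention in the marrow niche are set in part by such receptors, by cell cycle inhibitors and by adhesion molecules. Activated Ras also induces its own brakes, among them the Sprouty proteins and the dual-specificity phosphatases.

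The 6 mutant arrays had 26.0% to 42.4% of their spots well above background. NrasG12D/+ replicates 1 and 2 were the highest at 41.0% and 42.4%, while NrasG12D/+ replicate 3 at 28.5% lay among the NrasG12D/G12D arrays at 30.3%, 26.0% and 29.9%. NrasG12D/+ replicates 1 and 2 shared slide 1 with the Nras+/+ arrays, and NrasG12D/+ replicate 3 shared slide 2 with all 3 NrasG12D/G12D arrays. For the genes chosen by rule, the difference with the slide as a block is therefore given where it is over 1.5 times larger or smaller or turns its sign, and for gene lists where the median moved by more than its spread between arrays. That fit leaves NrasG12D/+ replicate 3 as the only array of its genotype against the NrasG12D/G12D arrays.

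Levels below are log2 signals, and a difference of 1 is a doubling. A level of 0 marks the array's 75th percentile among 6576 probes that cleared background throughout the series, not among all its probes. Genes that missed membership by 1 array were dimmer: the 1917 tested genes above background on 5 of the 6 arrays had a median level of -3.11, against -1.50 for the members. Outside the members, 343 genes were above background on all 3 NrasG12D/+ arrays and on no NrasG12D/G12D array, and 13 the other way round. The part of the detection rates above in these counts was not tested.

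No gene passed an adjusted p of 0.05 between the mutant genotypes (limma with Benjamini-Hochberg adjustment over 15029 genes, percent called 0). The lowest adjusted p was 0.804 among the members and 0.483 among all genes tested. At an unadjusted p under 0.05, the limma fit called 263 of 6287 members, or 4.18%, against 5.92% of all genes tested. Of these members, 126 (2%) had the higher mean in NrasG12D/G12D and 137 (2.18%) the lower, so 52.1% were lower. Over all genes tested the split was 240 against 650 (73.0% lower), and over the tested genes that are not members 114 against 513 (81.8% lower). Genes outside the members needed only 2 of the 8 arrays above background, and NrasG12D/+ replicates 1 and 2 had the most spots above it. Such genes could enter the test through high NrasG12D/+ values alone, so these 2 shares are no measure of direction. The part of the filter in them was not tested. Uniform p-values would put 314.35 members under that level.

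Under the scaling used, the mean differences were spread evenly around 0. The arrays were scaled on probes above background on all 8 arrays, which include the probes of 5974 members. The scaling itself therefore tends to centre the members, and their median is no result about genotype. In NrasG12D/G12D, 3239 members had the higher mean and 3048 the lower, with a median log2 difference of 0.03 and quartiles at -0.61 and 0.61. The size of the difference exceeded 1 in 1853 members and 2 in 411, but the median standard error of a difference was 0.81. The 3 values of each genotype did not overlap in 539 of 6007 members (8.97%), with NrasG12D/G12D above in 241 (4.01%) and below in 298 (4.96%). Random order of the 6 values would keep the genotypes apart in a share of 0.1 of genes, and the share over all genes tested is not given here. Another scaling of the arrays moved the median: it was 0.36 with the 75th percentile of all probes, 0.49 with the median of all probes and 0.24 with quantile normalization. The share lower among members at an unadjusted p under 0.05 became 21.0%, 12.6% and 30.3% under these 3 scalings. With the slide as a block it was 78.5% and the median difference was -0.25.

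Without regard to slide, likeness between arrays hardly depended on genotype. Across the 6007 members, the mean Pearson r was 0.673 within a genotype and 0.666 between genotypes (exact one-sided permutation test over the 20 assignments of the 6 arrays, p = 0.3, where the smallest p possible is 0.1). Single pairs ranged from 0.598 to 0.743. The permutation did not take account of the slide. Pairs of NrasG12D/G12D arrays, all on slide 2, had an r of 0.675 to 0.714. Their r with NrasG12D/+ replicate 3 on the same slide was 0.665 to 0.678. Between NrasG12D/+ replicate 3 and replicates 1 and 2 of its genotype, across slides, r was 0.615 and 0.665. NrasG12D/+ replicate 1 had the lowest mean r with the other 5 arrays, at 0.635.

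**Figure D1:**
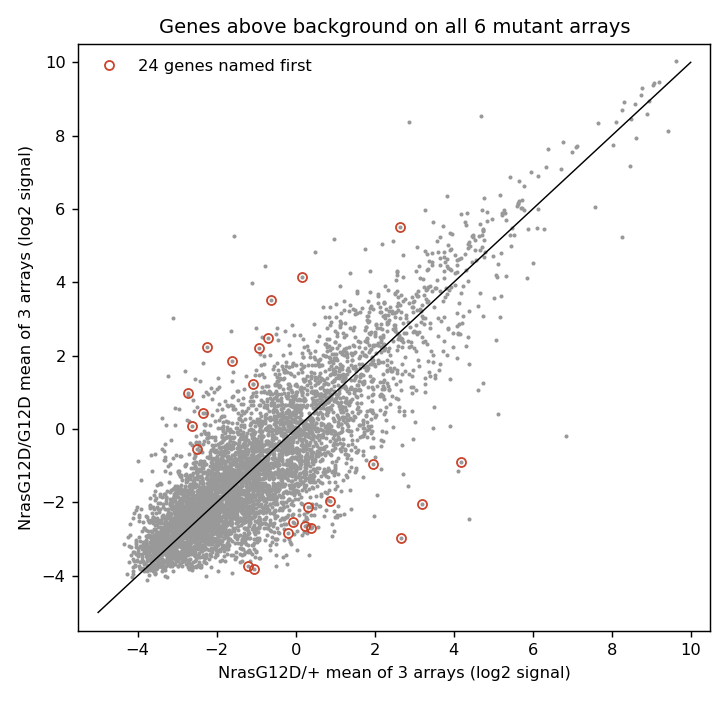
Mean log2 signal of the 6007 members with a value on all 6 mutant arrays, NrasG12D/+ on the x axis and NrasG12D/G12D on the y axis, each the mean of 3 arrays; circles mark the 24 genes named by rule and the line marks equality. Members lie on both sides of the line. Over all 6287 tested members, including those not plotted, 3239 had the higher mean in NrasG12D/G12D and 3048 the lower.

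The spread between replicates was as large as the differences. The median SD was 0.78 within NrasG12D/G12D and 0.87 within NrasG12D/+, while the median size of the difference of means was 0.61. The difference exceeded the pooled SD in 29.2% of members. A subset was measured tightly: 334 members had an SD under 0.5 in both genotypes, and in these the median size of the difference was 0.37. Of the 334, 41 differed by more than 1 and 102 (30.5%) did not overlap, beside 8.97% of all members. The subset was chosen for its small SD, which by itself makes overlap rarer. The largest difference among them was 2.88, for Pcyt2, an enzyme of phosphatidylethanolamine synthesis.

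For each direction, the 12 genes with the smallest p and no overlap between the genotypes are described by name. All 24 had an adjusted p of 0.804 in the limma fit. Those with a higher mean in NrasG12D/G12D differed by 1.94 to 4.48 on the log2 scale, and those with a lower mean by -2.44 to -5.63. They were picked for these differences, so their sizes are a description.

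Among the genes with a higher NrasG12D/G12D mean, Dusp22 encodes a phosphatase that acts on MAP kinase pathways. Its level was 2.80, 5.41 and 2.35 in NrasG12D/G12D replicates 1 to 3 and -0.61, -0.69 and -0.56 in NrasG12D/+, a difference of 4.14 (SE 0.88). The NrasG12D/+ arrays and both Nras+/+ arrays (-1.0 and 0.06) were low, and each NrasG12D/G12D array stood above them. Bmp1, a metalloprotease that trims procollagen, was at 3.79, 2.70 and 0.25 in NrasG12D/G12D and at -0.93, -3.44 and -2.34 in NrasG12D/+. The NrasG12D/G12D values ranged widely but lay above all 3 NrasG12D/+ values, and the Nras+/+ arrays (-0.42 and -2.55) lay below the NrasG12D/G12D values as well. Lmntd2, a gene with a lamin tail domain, was at 1.50, 0.54 and 0.92 against -3.22, -1.98 and -2.97. Its Nras+/+ arrays, at 0.65 and -1.62, lay within the NrasG12D/G12D range and between the mutant genotypes.

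Other genes in this direction had Nras+/+ values on the NrasG12D/G12D side. Gdf1, a ligand of the TGF-beta family, was at 1.53, 3.18 and 2.73 in NrasG12D/G12D, at -2.04, -0.20 and 0.17 in NrasG12D/+, and at 3.08 and 3.64 in Nras+/+. Gpsm1, a modulator of G protein signalling, was at 1.54, 2.65 and 2.42, at -0.96, -2.06 and 0.27, and at 2.32 and 3.49 in the same order. In both genes the NrasG12D/+ arrays were the low ones of the series. With the slide as a block the Gpsm1 difference of 3.12 became 1.94. Tnnt3, a fast skeletal muscle troponin, and Spaca4, an acrosomal membrane protein, also had their lowest 3 arrays in NrasG12D/+, with differences of 3.46 (2.0 with the slide as a block) and 2.85. The remaining genes were 0610039H22Rik (4.0), Arhgef10l (2.80), a guanine nucleotide exchange factor, Agap2 (2.70), an ARF GTPase-activating protein, D930020B18Rik (2.30) and Nol9 (1.94), a kinase in ribosomal RNA processing. Both Nras+/+ arrays lay above all 3 NrasG12D/+ arrays in 7 of the 12 genes. The genes were picked partly for low NrasG12D/+ values, which by itself makes this more likely, and the share over all members is not given here.

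Among the genes with a lower NrasG12D/G12D mean, Sptlc2 encodes a subunit of serine palmitoyltransferase, which starts sphingolipid synthesis. It was at -2.46, -0.75 and -2.93 in NrasG12D/G12D, at 1.65, 3.85 and 4.11 in NrasG12D/+, and at -2.48 and -1.0 in Nras+/+. The 3 NrasG12D/+ arrays were the high ones, and the difference was -5.25 (SE 0.93). Rph3al, a Rab effector in exocytosis, was at 1.17, -0.10 and -3.74 against 4.03, 4.05 and 4.44. The NrasG12D/+ arrays agreed closely here, with an SD of 0.23, and the NrasG12D/G12D arrays spread with an SD of 2.55. Jakmip1, a protein that binds Janus kinases and microtubules, was at -2.93, -2.89 and -3.05 against 1.04, 1.40 and 5.59. The NrasG12D/G12D arrays and both Nras+/+ arrays (each -2.27) were low together. With the slide as a block the Jakmip1 difference was -8.55 with an adjusted p of 0.0378 in limma, set by the value 5.59 of NrasG12D/+ replicate 3.

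Hspb6, a small heat shock protein, was the only other member past the threshold in the blocked fit (log2 difference -10.58, limma adjusted p = 0.0378), and is named here after its values were seen. It stood at 8.38 on NrasG12D/+ replicate 3 and between -3.12 and -1.02 on the other 7 arrays. The unblocked difference was -2.96 with an adjusted p of 0.866.

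Of the genes in this direction, Pcyt2 and Klra16 had an SD under 0.5 in both genotypes. Pcyt2 was at -3.18, -2.46 and -2.31 in NrasG12D/G12D and at -0.27, 0.56 and 0.41 in NrasG12D/+. Klra16, a natural killer receptor of the Ly49 family, was at -2.55, -2.81 and -3.17 against -0.16, -0.31 and -0.13. In both genes the genotypes were separated by a gap wider than either range. Ly49 genes are closely related copies, so the gene behind the Klra16 signal is uncertain. The remaining genes were 2610028H24Rik (-3.09), the galactose kinase Galk1 (-2.93), the autophagy initiator Atg101 (-2.85, or -1.63 with the slide as a block), the ciliary BBSome subunit Bbs4 (-2.75), the macrophage pore-forming protein Mpeg1 (-2.53), the mitochondrial ADP/ATP carrier Slc25a5 (-2.47) and the keratin Krt36 (-2.44). Both Nras+/+ arrays lay below all 3 NrasG12D/+ arrays in 8 of the 12 genes, which the choice of genes also makes more likely. The Nras+/+ arrays shared a slide with NrasG12D/+ replicates 1 and 2, not with the NrasG12D/G12D arrays.

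**Figure D2:**
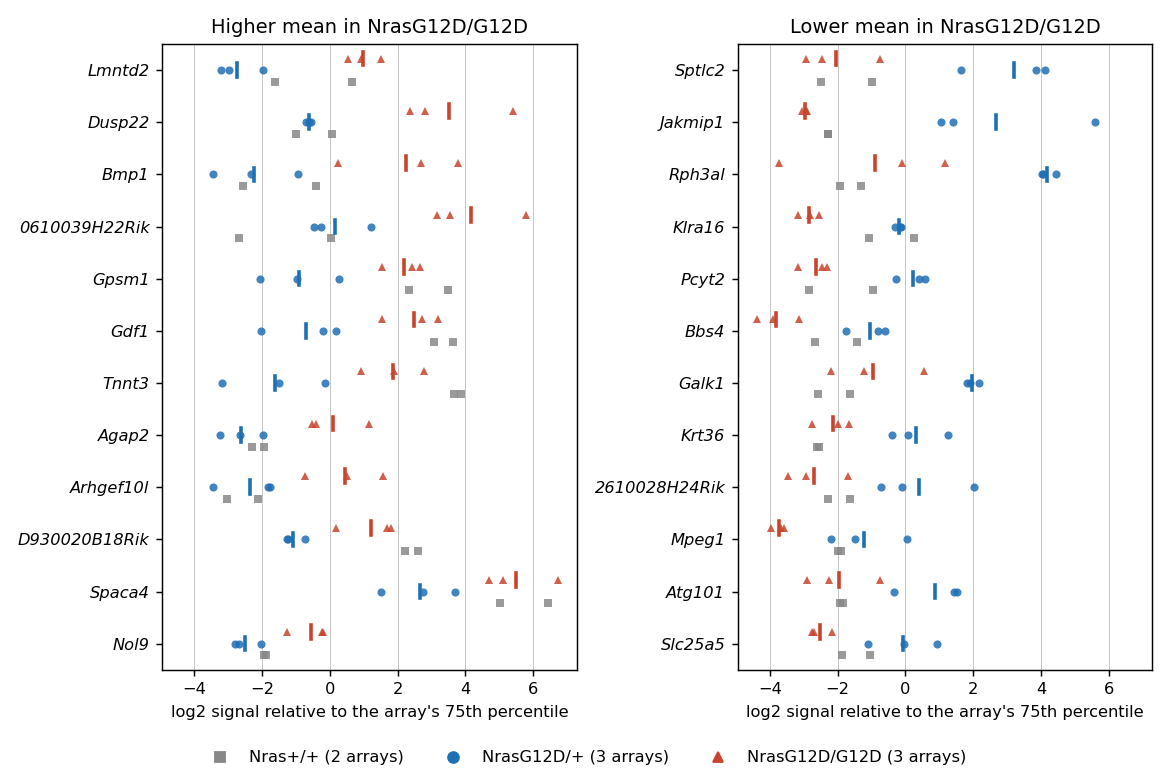
Log2 signal of the 24 genes chosen by rule, 1 point per array on the x axis; squares are Nras+/+ (2 arrays), circles NrasG12D/+ (3) and triangles NrasG12D/G12D (3), and vertical ticks are the means of the mutant genotypes. By the choice of genes the mutant genotypes do not overlap, with NrasG12D/G12D higher on the left and lower on the right, while the Nras+/+ squares lie on either side.

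A gene's differences could be read on a further probe where 2 probes were above background on all 6 arrays, which held for 525 members. In 522 of these both probes gave a difference, and the signs matched in 271, or 51.9%. Across these genes the Pearson r of the differences was 0.117, as a description of probes on the same 6 arrays. The agreement varied with the probe sequences. In the 28 pairs that shared a run of at least 20 bases, r was 0.575 and 20 signs matched (71.4%), while in the 494 pairs that shared none, r was 0.0722 and 251 matched (50.8%). The median gap between the paired differences was 0.87 and 0.92 in these sets. In 57 genes both probes differed by more than 1, and the sign matched in 35.

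A few named members show the range of this agreement, and the first 30 of the 60 bases of each probe, as listed in the files, are printed to show which pairs read the same stretch. Capitals mark a run of 55 bases that both Mapk3 probes share, of which the first part is shown; the other pairs come from separate stretches.
Mapk3, brighter probe: tgtctTTATCTACCCTTGCTAGCCCCGGCT
Mapk3, dimmer probe: tcTTATCTACCCTTGCTAGCCCCGGCTCTG
Arhgef10l, brighter probe: aagtctcctttctgcataggaaagatgtcc
Arhgef10l, dimmer probe: gcagctggatcactgcggacatgctgggac
H2-D1, brighter probe: agcctcctccgtccactgactcttacatgg
H2-D1, dimmer probe: aggggactatgctctggctccaggctccca
The files place the Mapk3 probes at chr7:126556607-126556666 and chr7:126556612-126556669, the Arhgef10l probes at chr4:139852981-139855932 and chr4:139786975-139787034, and the H2-D1 probes at chr17:34874240-34874299 and chr17:34874545-34874777, with no genome build stated. Spans longer than a probe are as listed, and exon or UTR annotation was not used here.

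The overlapping Mapk3 probes, for the kinase ERK1, followed each other array by array. The brighter probe read -4.41, -1.66 and -2.85 in NrasG12D/G12D and -3.00, -2.94 and -2.26 in NrasG12D/+. The dimmer probe read -4.27, -1.83 and -3.25, and -3.15, -3.17 and -2.91. Both put NrasG12D/G12D replicate 1 lowest and replicate 2 highest. The separate Arhgef10l probes did not: the brighter read -0.72, 0.51 and 1.57 against -1.77, -1.82 and -3.45, a difference of 2.80, and the dimmer -3.65, -2.17 and -1.23 against -1.66, -1.83 and -1.21, a difference of -0.78. For H2-D1, a classical MHC class I heavy chain, the brighter probe gave -2.05, or -1.31 with the slide as a block, and the dimmer 2.43. MHC class I genes are closely related copies, so the signal of either probe may include relatives.

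Among the 24 genes named by rule, 6 further probes were above background on 3 or more mutant arrays, and 3 of these had the sign of the probe described. The further Pcyt2 probe, above background on 5 arrays, gave -0.73 beside -2.88. The further Jakmip1 probe, on 3 arrays, gave -0.51 beside -5.63, and that of Agap2, on 4, gave 0.44 beside 2.70. Of the probes with the opposite sign, that of Nol9 gave -0.55 beside 1.94.

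**Figure D3:**
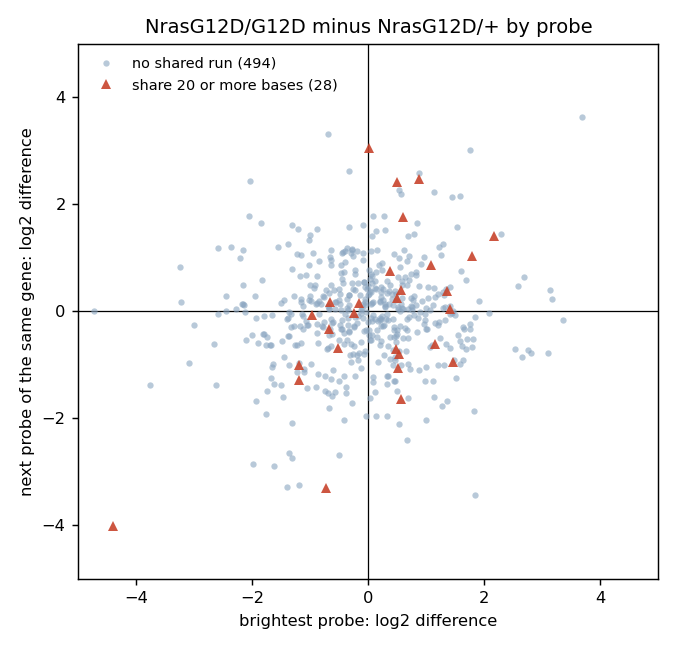
Log2 difference NrasG12D/G12D minus NrasG12D/+ of the brightest probe (x axis) against that of the next probe of the same gene (y axis), 1 point per gene; triangles are the 28 pairs that share 20 or more bases and circles the 494 that do not. The triangles lean along the rising diagonal (r 0.575) and the circles scatter around the origin (r 0.0722).

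Gene lists drawn from the biology of Ras and of HSCs were then read for how many of their members passed the test. None did in any of the 40 lists (limma, adjusted p under 0.05). List medians below are relative to the median of all members, so a value of 0 is the typical member.

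Of the Ras GTPases themselves and the kinases just downstream, few were measurable. Nras was above background on at most 3 of the 6 mutant arrays by any of its 3 probes, and Hras, Braf, Map2k1 and Map2k2 also missed membership. The number of mutant alleles could therefore not be set against an Nras level. Of the Ras GTPases and their regulators, 8 of 27 on the array were members, 4 with a higher and 4 with a lower mean, at a median of -0.30. Ptpn11, the phosphatase SHP2 that couples receptors to Ras, was at -4.34, -2.67 and -3.43 in NrasG12D/G12D and at -1.11, -1.31 and -0.67 in NrasG12D/+. All 3 NrasG12D/G12D arrays lay below the others, and the difference was -2.45 (SE 0.76, limma adjusted p = 0.804). Its further probes were above background on no mutant array. Lztr1, an adaptor for Ras degradation, differed by -2.36 and overlapped. Grb2, an adaptor that brings the exchange factor SOS to receptors, differed by 0.35, and Shoc2, a RAF scaffold with 1 NrasG12D/G12D value, by 1.0.

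The MAP kinase cascade had 5 members, 4 with a higher mean, at a median of 0.03 and with no member without overlap. Map3k3 and Mapk9, kinases of parallel MAP kinase branches, each differed by 1.17, and Mapk6 and Rps6ka1, the ERK target RSK1, by 0.06 and 0.07. Mapk3 differed by -0.24, or -0.72 with the slide as a block, a sign that turned under each of the other scalings tried and under normexp background correction.

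The feedback and output genes of the Ras-ERK pathway had 7 members, 3 with a higher mean and 4 with a lower one, at a median of -0.41 that became 0.85 with the slide as a block. Ccnd1, the D-type cyclin that links Ras signalling to the cycle, was at -1.33, -2.19 and -0.77 in NrasG12D/G12D, at 0.10, -0.11 and 1.83 in NrasG12D/+, and at 0.89 and 2.33 in Nras+/+. The NrasG12D/G12D arrays were the lowest of the series, at a difference of -2.04 (SE 0.80, limma adjusted p = 0.804) or -3.26 with the slide as a block. The other members overlapped between the genotypes. Dusp6, the phosphatase that removes ERK phosphorylation, was at -2.65, -3.22 and -2.84 against -3.41, -2.64 and -1.51, a difference of -0.38 that was -1.39 with the slide as a block. Spry1, a Sprouty inhibitor, was at -0.99, -0.33 and -0.61 against -2.84, -1.53 and -0.27. Myc, a transcription factor stabilised by ERK, was at 2.27, -0.95 and 1.66 against 1.39, 0.09 and 0.11, a difference of 0.47 (0.89 with the slide as a block). Etv4, Fosl2 and Plaur differed by -0.87, -0.57 and 0.81 with standard errors of 1.32, 2.08 and 1.27.

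Of the PI3K, AKT and mTOR components, 10 were members, 3 with a higher mean, at a median of -0.22, and Akt1 and Akt2 differed by -0.73 and -0.35. The JAK-STAT5 list had 8 members, 4 in each direction, at a median of -0.07. Stat5a, a transducer of thrombopoietin and interleukin-3 signals, differed by 0.03, and Bcl2l1, its survival target, by -0.94. No member of either list was without overlap.

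Of the cytokine receptors, 8 of 24 on the array were members, 2 with a higher and 6 with a lower mean, at a median of -0.74. Tgfbr1, the type I TGF-beta receptor, had the largest difference of the list: it was at 1.59, 4.01 and 2.69 in NrasG12D/G12D, at -2.36, 1.21 and -1.82 in NrasG12D/+, and at -0.04 and 3.18 in Nras+/+. All 3 NrasG12D/G12D values lay above the NrasG12D/+ values, at a difference of 3.76 (SE 1.22, limma adjusted p = 0.804). Its further probe, above background on 4 mutant arrays, gave -0.84. Csf1r, Csf2rb and Il6ra, receptors of myeloid cytokines, differed by -1.49, -1.45 and -2.06 and overlapped. A further Il6ra probe, also above background on all 6 arrays, gave 1.78. NrasG12D/+ replicate 1 was the highest of the NrasG12D/+ arrays for Csf1r (0.45) and Il6ra (3.34).

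The labelled cell type was checked on markers of HSCs. Of 34 HSC identity genes, 15 were members. Among the HSC genes named here, Ly6a (Sca-1), Slamf1 (CD150) and Runx1 were members, while Kit, Procr, Gata2, Cd34 and Meis1 were not. Kit, Cd34 and Meis1 were above background on at most 1, 2 and 5 mutant arrays, and Procr and Gata2 on no mutant array. The 15 members split 8 to 7 between the directions at a median of 0.07, and none was without overlap. Ly6a was at -1.34, 1.28 and -0.73 in NrasG12D/G12D and at -1.73, -1.07 and -0.96 in NrasG12D/+. Runx1, a transcription factor of definitive hematopoiesis, was at 0.88, 2.43 and 0.44 against 0.08, 1.58 and -0.02, a difference of 0.70 (1.27 with the slide as a block). Slamf1 was at -3.81, -2.54 and -2.81 against -2.87, -3.99 and -2.62, a difference of 0.11 (-0.43 with the slide as a block). The genotypes overlapped in all 3. Mllt3, Esam and Fgd5, further HSC genes, differed by 0.55, 0.31 and 0.57 (a further Mllt3 probe gave 0.00018), and Lmo2, Tal1 and Vwf by -2.35, -0.99 and -0.84. In bulk RNA, fewer cells of a type and less RNA per cell cannot be told apart.

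Markers of other blood cells were also among the members, which by the rule are above background in both genotypes. Over the whole array, 6367 of 27600 gene names were members, so the counts below do not by themselves show that other cells were present. Members numbered 6 of 19 for myeloid progenitors (median -0.88), 4 of 15 for mature neutrophils (0.10), 5 of 19 for monocytes and macrophages (-0.75), 6 of 22 for erythroid cells (0.20), 8 of 23 for megakaryocytes (-0.53) and 10 of 24 for B cells (0.19). They numbered 6 of 29 for T and NK cells (0.19), 2 of 14 for mast cells and basophils (1.89), 8 of 24 for endothelial and stromal cells (-0.15) and 6 of 21 for lymphoid priming (-0.23). The mean level of the myeloid progenitor list was 0.19, -1.55 and -1.21 in NrasG12D/+ and -1.99, -0.52 and -1.79 in NrasG12D/G12D, with NrasG12D/+ replicate 1 the highest. Mpo, the granule enzyme myeloperoxidase, was at 7.36 on that array and at 3.41 on NrasG12D/G12D replicate 2, and between -1.52 and -0.48 on the other 4 mutant arrays. Without NrasG12D/+ replicate 1 the median of that list was -0.17. The mast cell proteases Mcpt4 and Tpsb2 differed by 2.25 and 1.59, and both overlapped.

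Quiescence regulators had 9 members, 4 with a higher and 5 with a lower mean, at a median of -0.78. Their mean level was 0.81, 0.36 and 0.33 in NrasG12D/+ and 0.13, 0.17 and 0.15 in NrasG12D/G12D, with no overlap, but the genotypes overlapped once the mean of all members was taken off each array. Trp53, the tumour suppressor that holds HSCs in quiescence, was at 1.81, 1.05 and 1.85 in NrasG12D/G12D, at 2.59, 2.65 and 2.07 in NrasG12D/+, and at 2.25 and 2.51 in Nras+/+. The NrasG12D/G12D arrays were the low ones at a difference of -0.86 (SE 0.61, limma adjusted p = 0.838) or -0.50 with the slide as a block, and a further probe, above background on 3 mutant arrays, gave 0.66. Foxo4, a FOXO factor restrained by AKT, was at -3.41, -2.56 and -3.15 against -2.05, -1.65 and -1.47. The genotypes did not overlap, and the difference was -1.31 (SE 0.92). Cdkn1b, the cycle inhibitor p27, was at 4.05, 7.09 and -0.17 against 1.62, 4.05 and 4.09, so its NrasG12D/G12D values enclosed the others, and its difference of 0.40 was -0.43 with the slide as a block. Klf2, a factor that maintains quiescence in lymphocytes, differed by 0.71. The p53 pathway list, which shares Trp53 and Btg2 with this one, had 8 members, 6 with a lower mean, at a median of -0.73 that became -0.19 without NrasG12D/+ replicate 1.

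By their means cell cycle genes did not share a direction, but the members without overlap, 2 in each list below, were all lower in NrasG12D/G12D. Over all members 4.96% were lower without overlap. The G1/S and DNA replication list had 10 members, 4 with a higher mean, at a median of -0.45. The mean level of 9 of them was -0.66, -0.75 and -0.26 in NrasG12D/+ and -0.88, -1.23 and -1.06 in NrasG12D/G12D. The genotypes did not overlap, also with the mean of all members taken off each array, as in 5 of the 40 lists. Besides Ccnd1, Lig1, the ligase that joins Okazaki fragments, was at 2.12, 0.62 and 0.74 against 3.66, 3.53 and 1.69, a difference of -1.80 (SE 0.78) that was -0.53 with the slide as a block. Ccnd2 and Cdk6, partners at the start of the cycle, differed by 0.14 and 0.46, or -0.35 and -0.28 with the slide as a block, and overlapped, Cdk6 with 2 NrasG12D/G12D values. The G2/M and mitosis list had 14 members, 8 with a higher mean, at a median of 0.04. Plk1, the mitotic Polo kinase, was at -0.96, -0.14 and -0.03 against 1.87, 1.14 and 0.32, the lower group without overlap. Tk1 of the G1/S list and Nusap1 of the G2/M list were also lower without overlap, by -0.80 (SE 0.61) and -0.27 (SE 0.58). Birc5, Aurka and Cdc25b differed by 0.24, -0.06 and 0.05.

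Adhesion and niche retention genes had 11 members, 9 with a higher mean and 2 with a lower one, at a median of 0.33 beside 0 for the members. The mean level of the 10 with all values was -1.78, -1.72 and -1.83 in NrasG12D/+ and -1.29, -1.19 and -0.95 in NrasG12D/G12D, without overlap, also after the mean of all members was taken off each array (-0.57, -0.61 and -0.97 against -0.055, -0.25 and 0.11). After that centring the genotypes did not overlap in 5 of the 40 lists (12.5%), beside 8.97% of single members: higher in NrasG12D/G12D for adhesion, T and NK cell and mast cell genes, and lower for G1/S and oxidative phosphorylation. Itgb7, an integrin beta chain of lymphocyte homing, was at 0.09, 0.16 and 2.84 in NrasG12D/G12D and at -1.36, -0.19 and -0.82 in NrasG12D/+. Itgb2, the leukocyte integrin chain CD18, was at 0.14, -1.20 and -2.21 against -2.60, -2.63 and -2.32. In both the NrasG12D/G12D arrays were above, by 1.82 (SE 0.86) and 1.43 (SE 0.76). Tln1, the integrin activator talin, and Rac2, the hematopoietic Rac GTPase, differed by 1.98 and 1.23 and overlapped. Cd63 and Itga2b had the lower means, at -0.84 and -0.45.

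**Figure D4:**
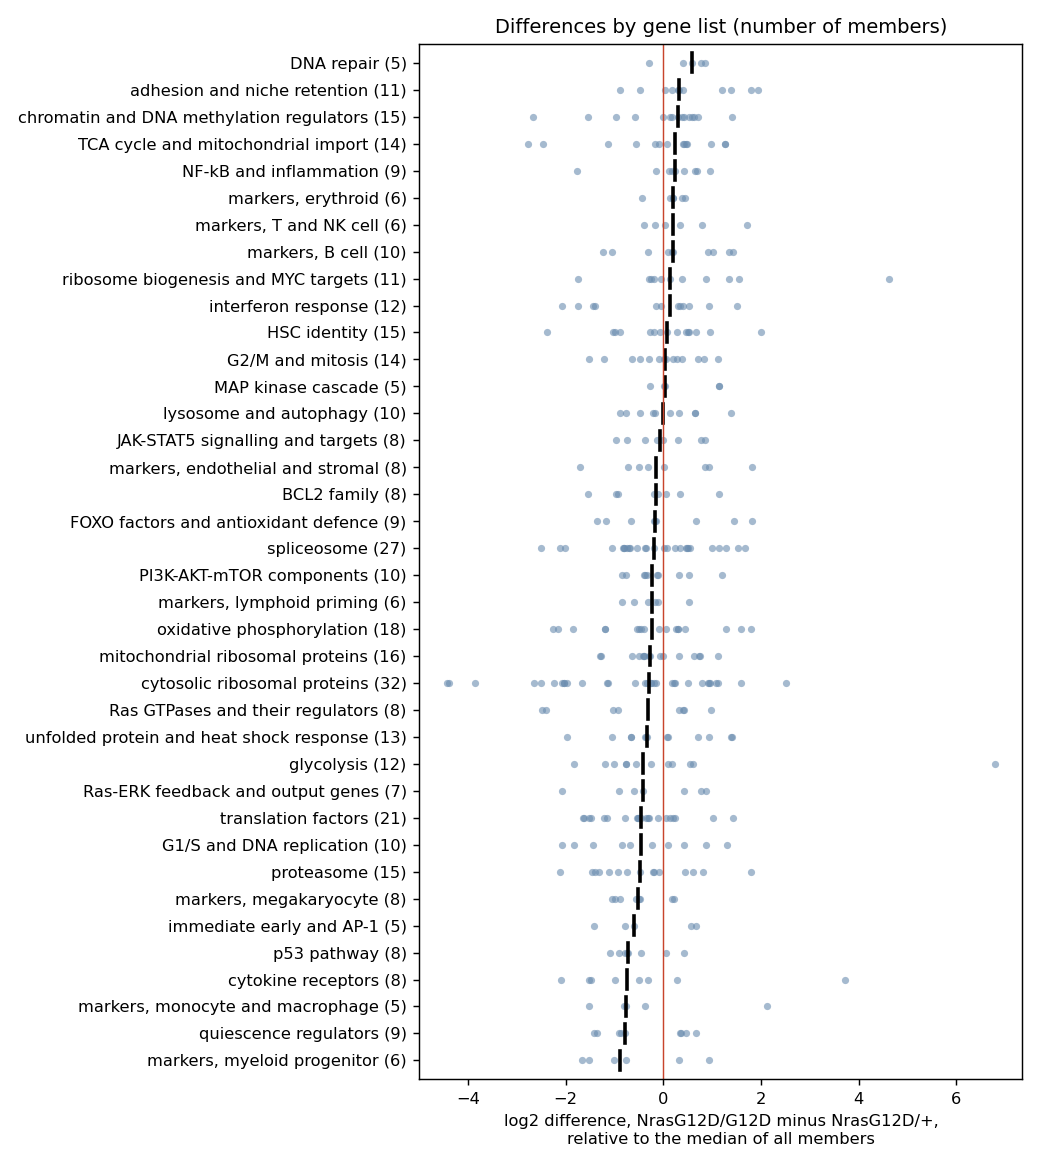
Log2 difference NrasG12D/G12D minus NrasG12D/+ relative to the median of all members (x axis) for the gene lists with 5 or more members, 1 point per gene and a bar at each list's median; a gene can be in several lists. Medians run from -0.88 for myeloid progenitor markers to 0.59 for DNA repair (5 members), and the points of each list fall on both sides of 0.

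Lists of the protein synthesis machinery depended on single arrays. The cytosolic ribosomal proteins had 32 members, 12 with a higher and 20 with a lower mean, at a median of -0.30. Their mean level was 2.49, -0.24 and 0.98 in NrasG12D/+ and -0.40, 0.29 and 1.27 in NrasG12D/G12D, with NrasG12D/+ replicate 1 the highest. Rpl23a, of the large subunit, was at 7.96, -2.08 and 0.10 in NrasG12D/+ and at -3.04, -1.72 and -2.32 in NrasG12D/G12D. Rps23, of the small subunit, likewise stood at 7.52 on NrasG12D/+ replicate 1 and at no more than -1.95 on the other mutant arrays. Other arrays had such values too: Rps24 was at 9.25 on NrasG12D/G12D replicate 2. Rpl13 was high on an array of each genotype, at 8.34 on NrasG12D/+ replicate 3 and at 6.70 on NrasG12D/G12D replicate 3. Many ribosomal protein genes, like Gapdh, have processed pseudogenes of near-identical sequence, so the gene behind a signal is uncertain. Rpl38 (-2.03) and Rps18 (-1.11) were lower and Rpl8 (0.98) higher without overlap. Translation factors had 21 members, 15 with a lower mean, at a median of -0.45 that became 0.23 without NrasG12D/+ replicate 1.

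**Figure D5:**
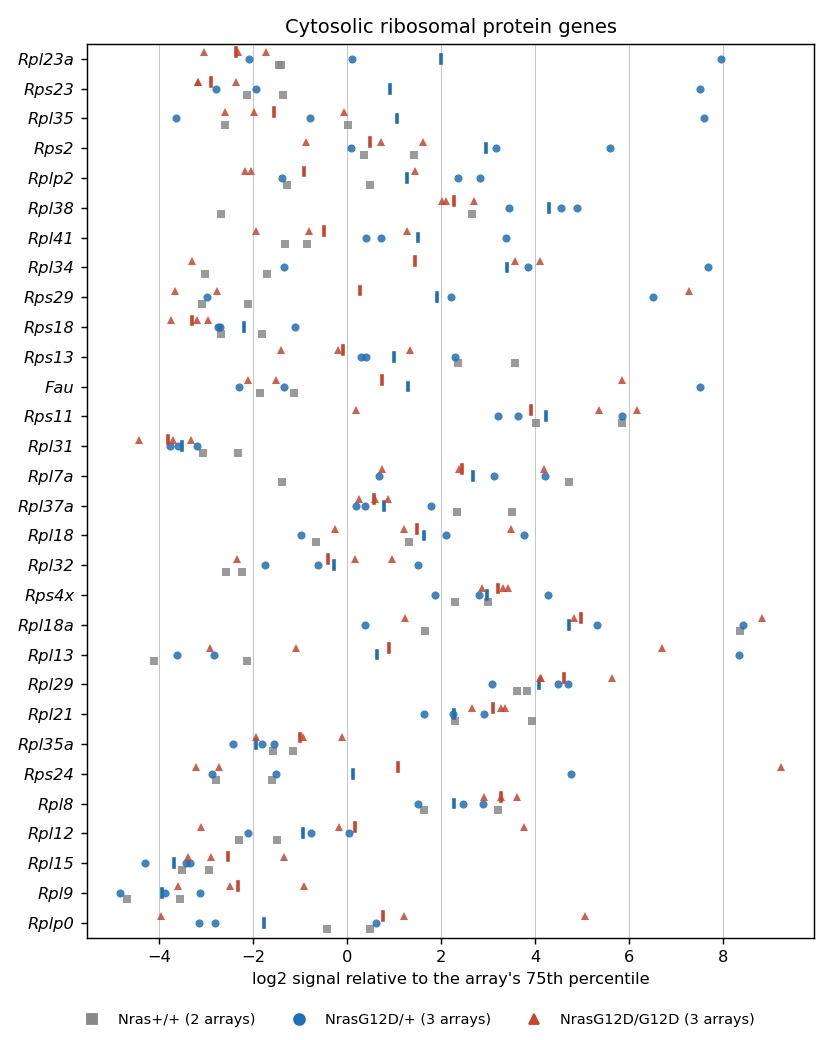
Log2 signal (x axis) of 30 of the 32 cytosolic ribosomal protein genes among the members, 1 point per array, with symbols as squares for Nras+/+, circles for NrasG12D/+ and triangles for NrasG12D/G12D and ticks at the means of the mutant genotypes. Rpl23a and Rps23 each have 1 NrasG12D/+ value above 7 far from the rest, and Rps24 has 1 NrasG12D/G12D value of 9.25.

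Such single high values were counted over all members, with a limit chosen after they had been seen. In 172 of 6007 members (2.86%), 1 mutant array stood 4 or more log2 units, at least 16-fold, above the next highest. NrasG12D/+ replicate 1 was that array in 59 members, and the others in 17 to 31. A single low array at the same distance was found in 12 members. Of the 32 ribosomal members 6 had a single high array, or 18.8%. Gapdh, the glycolytic enzyme often used as a reference, had values of 7.18, 10.20 and -1.56 in NrasG12D/G12D and -0.46, -2.19 and -2.00 in NrasG12D/+, so 2 of its arrays were high. Its difference of 6.83 had a standard error of 2.46.

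In the proteasome list, 11 of 15 members had a lower mean, at a median of -0.48 that became -0.07 with the slide as a block. The core subunits Psmb7 (-2.07), Psmb9 (-1.36) and Psma6 (-1.07) were lower without overlap, and the ubiquitin receptor Adrm1 (1.83) was higher without overlap. A further Adrm1 probe, above background on 3 mutant arrays, gave 0.05. Psma6 was at -2.20, -2.55 and -2.82 in NrasG12D/G12D and at -1.34, -1.58 and -1.43 in NrasG12D/+, with every NrasG12D/G12D array lower. Chromatin and DNA methylation regulators had 11 of 15 members with a higher mean, at a median of 0.30 that became 0.03 with the slide as a block. Chd4, the NuRD remodeller, was at 5.48, 5.87 and 5.80 against 4.85, 5.17 and 4.88, a difference of 0.76 (SE 0.60) without overlap. Dnmt3a, the de novo DNA methyltransferase, differed by -0.55 and Tet3 by 0.33.

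In the lists of mitochondrial function, single genes stood apart from medians near the typical member. Oxidative phosphorylation had 18 members, 8 with a higher mean, at a median of -0.23. With the mean of all members taken off each array, the mean level of 17 of them was 0.55, 0.46 and 0.34 in NrasG12D/+. It was 0.22, 0.15 and 0.24 in NrasG12D/G12D, without overlap, as in 5 of the 40 lists. Ndufa5, of complex I, differed by 1.83 without overlap. Ogdh, of the citric acid cycle, differed by -2.74 without overlap, and Timm8b, an import chaperone, by -2.43 with overlap. With the slide as a block these were -4.68 and -1.38. A further Ogdh probe, above background on 3 mutant arrays, gave -0.42. In the list of FOXO factors and antioxidant defence, 6 of 9 members had the lower mean. Of its peroxiredoxins, Prdx2 and Prdx5 were higher without overlap, by 1.49 (SE 0.67) and 1.85 (SE 0.84), and Prdx3 differed by -1.14 (SE 1.49) with overlap. Prdx2 was at 2.51, 2.07 and 3.02 against 1.67, 1.31 and 0.15, but a further probe above background on all 6 arrays gave -0.069. Hspb1, a small heat shock protein, differed by 1.41 without overlap.

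The remaining lists had medians between -0.61 and 0.59. They were mitochondrial ribosomal proteins (-0.28, 16 members), spliceosome (-0.19, 27), the BCL2 family (-0.16, 8), DNA repair (0.59, 5), ribosome biogenesis and MYC targets (0.14, 11) and glycolysis (-0.41, 12). The others were the citric acid cycle and mitochondrial import (0.25, 14), the unfolded protein and heat shock response (-0.33, 13), FOXO factors and antioxidant defence (-0.16, 9), immediate early genes (-0.61, 5), inflammation (0.24, 9), the interferon response (0.13, 12) and lysosome and autophagy (-0.01, 10). With the slide as a block the medians of DNA repair, glycolysis and the spliceosome became -0.16, 0.26 and 0.017. Those of translation factors and of the myeloid progenitor and endothelial and stromal markers became 0.15, -0.0044 and 0.44.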

How the data were processed

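Arrays were read by Agilent Feature Extraction 10.5.1.1, per the file headers and the submitters' processing notes (probe genome build: not given in the sources used here). Its processed signal is an intensity on a linear scale, corrected for background and spatial trend on the array by the software per the file headers. The deposited value table holds a ratio, the processed signal over the array's median. Outlier spots (120 to 464 per array) were dropped, and none was saturated. Log2 processed signals of probes were scaled to each array's 75th percentile of 6576 probes, those well above background on every one of the 8 arrays. Probes were named through RefSeq tables (24375 of 41174 by accession, 6301 by symbol, 2419 by synonym). A gene was read by its brightest probe, taken among those above background on all 6 mutant arrays where it had any. Genes above background on at least 2 arrays were tested with limma 3.58.1 in R 4.3.3 over all 8 arrays without the slide, two-sided, with Benjamini-Hochberg adjustment and a threshold of 0.05. The prior had 3.88 degrees of freedom beside 5 residual ones, and the small number of arrays limits the precision.

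The members, gene lists and tests were chosen with earlier results of these data known. Named genes were, per direction, the 12 of smallest p under 0.05 without overlap and with a reference symbol, up to 3 genes per list of smallest p under 0.05, and members of a set of Ras, cycle and HSC genes; the further list members were picked for description with their values in view. The script was tested on simulated data. Alternatives were other scalings, background correction, filters, weights, priors, blocks and each array left out. Some genes are not reported here.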

Additional observations from a re-analysis of the deposited data

How the results depend on the processing

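Over 22 alternatives, all 24 genes named by smallest p kept the sign of their difference, and 39 of all 47 named genes did. For the 24 this outcome was partly fixed by their selection. Their values were already separate between the mutant genotypes, so dropping 1 array could not turn a sign. The fit without the Nras+/+ arrays left their differences unchanged. Under such settings a kept sign is no evidence of stability. No member passed the threshold under any of them except with the slide as a block (2 members; median difference -0.25). Within slide 2 the median was -0.25, and with scaling over all probes 0.36, to the median of all probes 0.49, by quantile normalization 0.24 and in the authors' deposited values 0.49. Members at an unadjusted p under 0.05 numbered 462 with scaling to the median and 464 in the deposited values, and the share lower among them was 79.0% within slide 2 and 12.7% in the deposited values. Leaving out 1 array at a time gave 193 to 334 members at that level, 0 past the threshold (0 to 2 over all genes tested), a median of -0.097 to 0.24, the highest without NrasG12D/+ replicate 3, and a share lower of 39.8% to 64.4%. The cause was not tested.

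Signs turned for 8 genes. Under the slide block, and likewise within slide 2, Cdk6 was -0.28, Cdkn1b -0.43, Ccnd2 -0.35 and Slamf1 -0.43. Mapk3 was 0.083 with scaling over all probes, 0.21 to the median, 0.059 by quantile, 0.091 by normexp and 0.21 in the deposited values. Dusp6 was 0.068, 0.038 and 0.070 under the median, normexp and the deposited values. With array weights Cdkn1b was -0.44 and Stat5a -0.50. Leaving out 1 array at a time gave -0.032 to 0.83 for Cdk6, -0.82 to 0.13 for Dusp6, -0.17 to 1.44 for Myc, -0.89 to 0.48 for Mapk3, -1.31 to 2.32 for Cdkn1b, -0.49 to 0.51 for Ccnd2, -0.31 to 0.48 for Slamf1 and -0.66 to 0.65 for Stat5a. Of 880 list medians under alternatives, 41 moved.

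With the replicate number as a replicate block, 0 members passed, 260 had an unadjusted p under 0.05 and the median was 0.028. The labels do not say whether arrays of one number were pairs. Their deviations correlated at 0.067, -0.10 and 0.0046, and those of arrays of different numbers at -0.15 to 0.14. Correlations over 3 arrays of each genotype cannot decide whether the arrays were paired.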
